A study of Homo sapiens with 8 samples.

Results

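The VEGF ligands VEGFA, VEGFB, VEGFC and PGF, the neuropilins NRP1 and NRP2 and the receptor FLT1 were followed through 8 RNA-seq libraries of MDA-MB-231 cells, a human line of metastatic triple-negative breast cancer. The 7 genes were taken by symbol from the 61228 genes of the count table. They were chosen by the knockout and control levels of VEGFA and of other hypoxia-response genes in monolayers, because VEGFA was higher in knockout monolayers while most of the others (28 of 40) were lower. The knockout effect in monolayers is therefore given as a description, without a test, and so is every contrast of VEGFA that uses a monolayer library. There were 4 groups of 2 libraries: knockout monolayers, control monolayers, knockout gels and control gels. Knockout cells had received Cas9 and guide RNAs against the transcription factor genes ETV1, ETV4 and ETV5 by nucleofection, which delivers molecules into cells with an electric pulse. The sources used here do not say whether they were a clone or a pool. The control gels are labelled with Cas9 and a control guide, and the control monolayers with a control guide alone, so in monolayers an effect of Cas9 cannot be told apart from one of the knockout if those controls had none. Monolayers grew on plastic and were lysed directly. Gels were of collagen I and were digested with collagenase I and frozen as pellets, so culture and harvest cannot be told apart. Nothing in the labels says that replicate libraries are from separate cultures. The p values rest on the spread between these libraries, estimated with the help of all genes, and that spread may be technical.

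Library totals ran from 15824504 to 23896899 counts, and mitochondrially encoded genes took 2.65 to 4.47% of them, the lowest share being in a knockout gel library. In gels, ETV1 and ETV4 transcripts were lower in knockout than in control libraries (log2 fold changes of -0.66 and -0.57) and ETV5 transcripts did not differ past the threshold (0.02, adjusted p = 0.808, edgeR). The count of a gene does not show whether its reading frame is intact. All 8 markers listed for MDA-MB-231 (VIM, CD44 and others) were detected in each library. Of 10 endothelial markers, CLDN5 and EMCN had 0 counts throughout and CDH5 and ERG had at most 1. PECAM1 (62 to 186 counts) and TIE1 (96 to 292 counts) were detected in every library. The 10 endothelial markers together, mostly ESAM and ROBO4, summed to 200.4 to 206 CPM (read counts scaled for depth) in knockout monolayers, 209 to 222 CPM in control monolayers, 198 CPM in each knockout gel and 263 to 275 CPM in control gels. Luminal breast markers, mostly KRT19, summed to 446 to 465 CPM in knockout gels and 728 to 771 CPM in control gels. RNA was taken from whole cultures of this line, so fewer cells that express a gene and less of its RNA per cell cannot be told apart.

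VEGF ligands are secreted dimers that drive the growth of blood and lymphatic vessels, and tumour cells are a major source of them. VEGFA, the main angiogenic ligand and a classical target of the hypoxia-inducible factors, binds the receptor tyrosine kinases FLT1 and KDR. VEGFB and PGF bind FLT1 alone among these kinases, while VEGFC, the lymphatic ligand, binds FLT4 and KDR. NRP1 and NRP2 have no kinase domain of their own. They serve as co-receptors for VEGF ligands and as receptors for class 3 semaphorins, and both are found on many tumour cells that lack KDR.

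Divided by the length of the longest protein-coding transcript, NRP1 and VEGFA were the most abundant of the 7 transcripts, and FLT1 was the rarest. On that measure VEGFA stood at 93.3 CPM per kb in knockout monolayers, 63.1 in control monolayers, 58.6 in knockout gels and 57.9 in control gels. NRP1 stood at 69.6, 65.9, 66.6 and 68.6 CPM per kb in the same order of groups. VEGFC followed with group means of 39.5 to 44.9 CPM per kb and VEGFB with 23.2 to 35.7, and then came PGF (3.15 to 6.39), NRP2 (3.02 to 4.64) and FLT1 (0.00773 to 0.499). VEGFA was above NRP1 in knockout monolayers alone, and PGF and NRP2 had overlapping ranges over the groups. The order of VEGFA and NRP1 depends on the length used. The annotated exons of VEGFA together span 14.4 kb against 3.54 kb for its longest coding transcript, and those of NRP1 11.5 against 5.88 kb. Per kb of merged exons the group means of VEGFA ran from 14.2 to 22.9 CPM, under VEGFC at 33.7 to 38.3 and VEGFB at 20.7 to 31.9. NRP1, at 33.7 to 35.5, was then under VEGFC in knockout gels (34.0 against 38.3) and control gels (35.0 against 37.6). In monolayers NRP1 and VEGFC were close (35.5 against 35.2 in knockout and 33.65 against 33.72 in control libraries). Shares of the 4 ligands were taken per kb of the longest coding transcript, and they depend on that choice of length in the same way. VEGFA supplied 52.8 and 53.9% of the summed level in knockout monolayers, against 45.1 and 42.2% in control monolayers. In gels its share was 45.7 and 44.6% in knockout libraries, against 41.1 and 43.5% in control libraries.

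**Figure D1:**
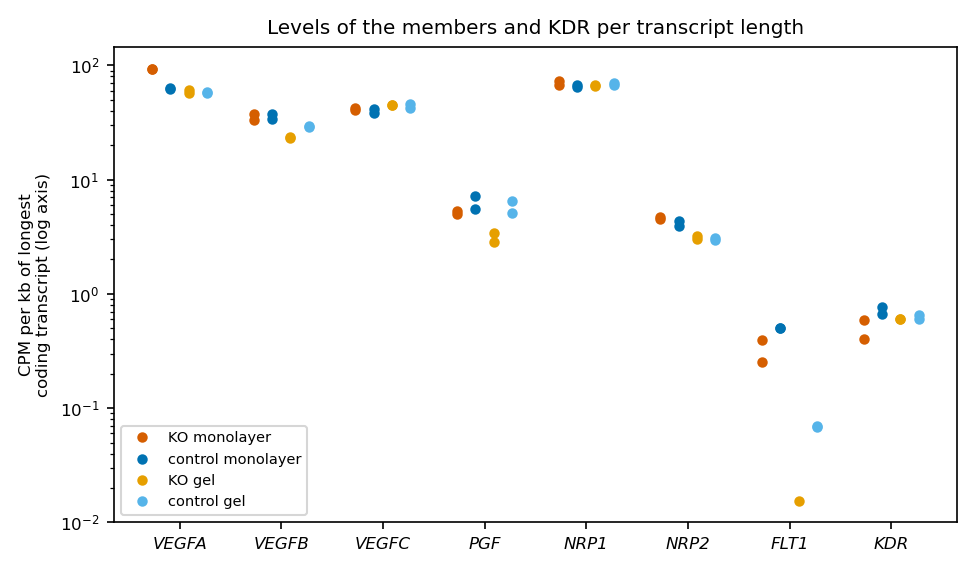
Transcript level of each VEGF ligand, neuropilin and receptor in CPM per kb of its longest coding transcript, on a log axis, with a point per library and colours for the 4 groups. VEGFA and NRP1 lie highest and FLT1 lowest, and the knockout gel library with 0 FLT1 counts is not drawn.

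Of the kinase receptors outside the 7 genes, only KDR, the main signalling receptor for VEGFA, passed the filter on low counts. It had 2.42 and 3.60 CPM in knockout monolayers, 4.67 and 4.03 CPM in control monolayers, 3.62 and 3.67 CPM in knockout gels and 3.94 and 3.62 CPM in control gels. In gels KDR did not differ past the threshold (log2 fold change -0.06 ± 0.204, SE; adjusted p = 0.878, edgeR), nor between cultures (0.26 in knockout and -0.22 in control cells, adjusted p = 0.356 and 0.441). FLT4 had a single count in 1 control gel library, and the ligand VEGFD had 2 counts in 1 knockout monolayer and 2 in 1 knockout gel.

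VEGFA, on chromosome 6 (chr6:43770184-43786487, plus strand, GRCh38), was the gene on whose level the choice was made. It had 329 and 331 CPM in knockout monolayers, against 225 and 221 CPM in control monolayers. Both knockout monolayers lay above both controls, by 1.48-fold (log2 0.56 ± 0.047, SE). In gels VEGFA had 214 and 200.3 CPM in knockout gels, against 202 and 207 CPM in control gels, and the groups overlapped. The fitted log2 fold change in gels was 0.02 ± 0.048 (95% interval -0.08 to 0.12, adjusted p = 0.818, edgeR). Without the first knockout gel library the estimate turned to -0.0084. Knockout cells had less VEGFA in gels than in monolayers by 0.67 ± 0.047 on the log2 scale (207 ± 9.77 against 330 ± 1.12 CPM, SD, n = 2 each). Control cells had less by 0.13 ± 0.047 (205 ± 3.50 against 223 ± 3.09 CPM, SD, n = 2 each). The log2 knockout effect was lower in gels than in monolayers, by a difference of -0.54 ± 0.067, a value that the choice of VEGFA on its monolayer level bears on. VEGFA shares 188 exonic bases with an antisense gene, NRP1 561 and NRP2 147, and since the strand setting of the counting is not given, reads of the antisense partners cannot be told apart there.

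**Figure D2:**
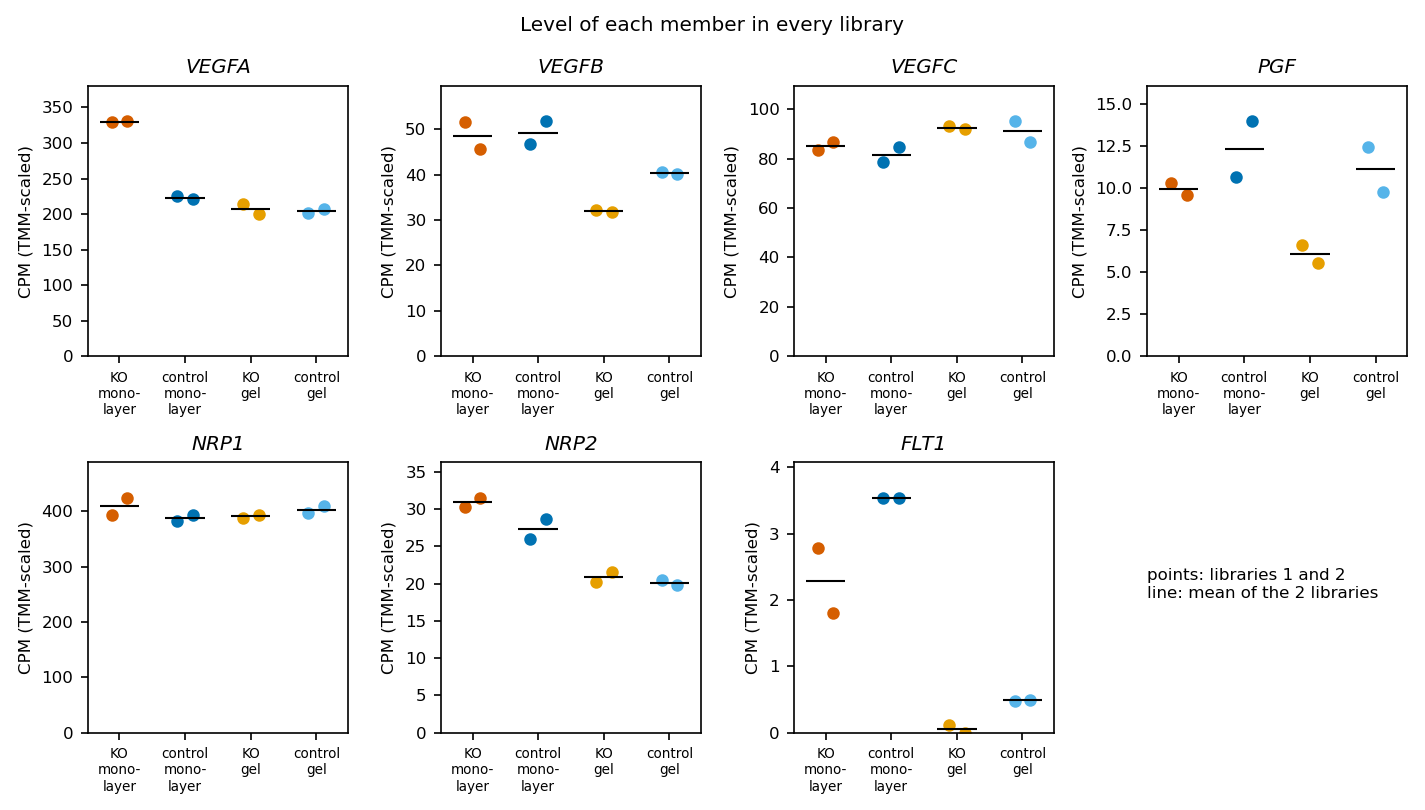
TMM-scaled CPM of each of the 7 genes, with a point per library in each of the 4 groups and a bar at the group mean. VEGFA stands at 329 and 331 CPM in knockout monolayers and between 200.3 and 225 CPM in the other 6 libraries, while NRP1 spans 382 to 425 CPM over all 8.

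The ligands other than VEGFA did not share its pattern. VEGFB, a ligand linked to fatty acid uptake and vessel survival (chr11:64234538-64238793, plus strand), had 32.3 and 31.7 CPM in knockout gels, against 40.7 and 40.1 CPM in control gels. It fell by 0.34 ± 0.076 on the log2 scale, a change of -20.7% (adjusted p = 0.00119, edgeR), and the groups did not overlap. PGF, the placental ligand of FLT1 (chr14:74941834-74955784, minus strand), had 6.63 and 5.53 CPM in knockout gels, against 12.4 and 9.77 CPM in control gels. It fell by 0.88 ± 0.153 on the log2 scale, a change of -45.5% (adjusted p = 6.28e-05). In monolayers VEGFB had 51.5 and 45.6 CPM in knockout libraries, against 46.7 and 51.7 CPM in control libraries. PGF had 10.3 and 9.60 CPM in knockout monolayers, against 10.7 and 14.0 CPM in control monolayers, both knockout libraries lying below both controls, and 1 control narrowly above them. The gel effect of the knockout minus its monolayer effect was -0.32 ± 0.105 for VEGFB and -0.59 ± 0.208 for PGF, neither of them tested.

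VEGFC (chr4:176683538-176792727, minus strand) did not differ past the threshold between genotypes in gels. It had 93.1 and 92.1 CPM in knockout gels, against 95.2 and 86.9 CPM in control gels, a log2 fold change of 0.02 (95% interval -0.10 to 0.14, adjusted p = 0.822, edgeR). In monolayers it had 83.5 and 86.9 CPM in knockout libraries, against 78.5 and 84.7 CPM in control libraries, and the groups overlapped.

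NRP1, the co-receptor of VEGFA (chr10:33177492-33336262, minus strand), had 389 and 394 CPM in knockout gels, against 397 and 410.0 CPM in control gels. The log2 fold change of -0.04 (95% interval -0.14 to 0.05) did not pass the test (adjusted p = 0.548). In monolayers NRP1 had 394 and 425 CPM in knockout libraries, against 382 and 393 CPM in control libraries. NRP2, the co-receptor of VEGFC (chr2:205681990-205798133, plus strand), had 20.2 and 21.6 CPM in knockout gels, against 20.5 and 19.8 CPM in control gels (log2 0.05, 95% interval -0.13 to 0.24, adjusted p = 0.716). In monolayers it had 30.3 and 31.5 CPM in knockout libraries, against 26.0 and 28.7 CPM in control libraries, a log2 difference of 0.18 ± 0.082 with no overlap.

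FLT1, a receptor that also exists as a soluble decoy (chr13:28300344-28495145, minus strand), had few counts. There were 2 and 0 counts in knockout gels, against 10 and 9 in control gels, and 46 and 33 counts in knockout monolayers, against 88 and 57 in control monolayers. It passed the filter on low counts through the monolayers alone. The depth-scaled ratio of knockout to control gels was 0.111, with an exact 95% counting interval of 0.0125 to 0.460, and in monolayers it was 0.640 (0.480 to 0.847). Both knockout gels were under both control gels. The gel difference passed the test (adjusted p = 0.00681, edgeR) but missed it without the knockout gel library that had 0 counts (adjusted p = 0.113). The summed endothelial markers, mostly ESAM and ROBO4, were also lower in knockout than in control gels (198 against 263 to 275 CPM). CDH5, CLDN5 and EMCN were at or near 0 in both, while PECAM1 and TIE1 were detected in every library. In the library with 0 FLT1 counts, the limit that this allows (3 counts) is 0.159 CPM. With FLT1 counted, 3 of the 7 genes were lower in knockout gels and 4 did not pass, where 23.9% of the 15568 genes tested were called, 12.4% lower and 11.5% higher. With only the 4 gel libraries in the fit, FLT1 did not pass the filter and VEGFB and PGF were the 2 genes called.

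**Figure D3:**
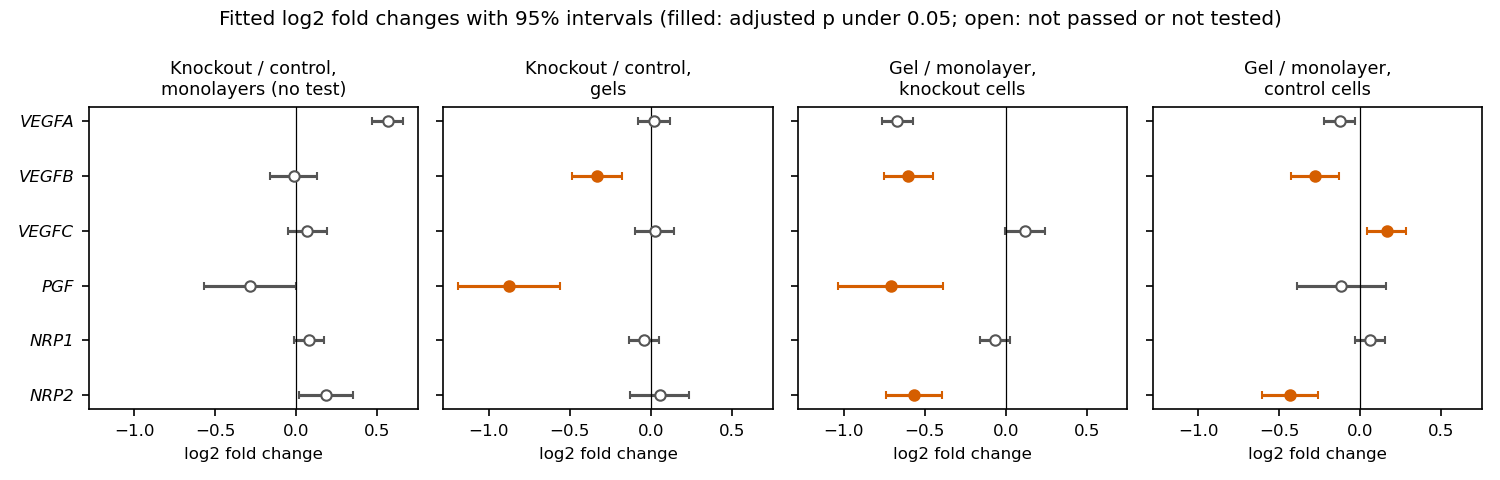
Fitted log2 fold changes with 95% intervals of the 6 genes other than FLT1, for knockout over control in monolayers (no test) and gels, and for gels over monolayers in knockout and control cells. Filled points have an adjusted p under 0.05 and open points did not pass or were not tested. VEGFA lies at 0.56 in monolayers and at 0.02 in gels, while VEGFB (-0.34) and PGF (-0.88) lie under 0 in gels.

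The stretches upstream of the start sites are shown for the 3 genes called lower in knockout gels. VEGFC, which was not called, is shown beside them. The FLT1 call rests on few gel counts and was lost without a knockout gel library, as given above. The stretches come from RefSeq promoters on GRCh38.p14, which matched 5 of the 7 genes. They run 5′ to 3′ on the gene's strand from 250 to 51 bases before the start site. Capitals mark a match to any of 4 short motifs searched on both strands: CGGAAG (a core bound by ETS factors such as ETV1, ETV4 and ETV5), ACGTG and GCGTG (cores bound by hypoxia-inducible factors) and TGAGTCA (bound by AP-1). The windows are chr11:64234334-64234533 (plus strand) for VEGFB, chr14:74955815-74956014 (minus strand) for PGF, chr13:28495179-28495378 (minus strand) for FLT1 and chr4:176792973-176793172 (minus strand) for VEGFC.
VEGFB: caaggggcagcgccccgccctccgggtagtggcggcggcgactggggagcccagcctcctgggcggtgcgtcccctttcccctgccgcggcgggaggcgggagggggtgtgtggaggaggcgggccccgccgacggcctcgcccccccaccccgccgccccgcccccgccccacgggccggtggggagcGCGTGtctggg
PGF: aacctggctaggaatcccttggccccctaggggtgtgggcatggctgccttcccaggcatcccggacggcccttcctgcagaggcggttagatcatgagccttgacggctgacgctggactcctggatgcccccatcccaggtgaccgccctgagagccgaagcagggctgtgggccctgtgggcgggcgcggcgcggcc
FLT1: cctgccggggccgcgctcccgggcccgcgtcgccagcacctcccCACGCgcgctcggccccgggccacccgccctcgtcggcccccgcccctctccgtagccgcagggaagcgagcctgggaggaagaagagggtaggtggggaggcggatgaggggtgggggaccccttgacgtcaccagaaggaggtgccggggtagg
VEGFC: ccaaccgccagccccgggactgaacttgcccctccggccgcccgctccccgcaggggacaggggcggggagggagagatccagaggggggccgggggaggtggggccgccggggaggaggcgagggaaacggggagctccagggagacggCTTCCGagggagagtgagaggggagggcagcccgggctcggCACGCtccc
VEGFB held GCGTG 61 bases before its start site on its own strand. FLT1 held GCGTG on the opposite strand 206 bases before its start. VEGFC held CGGAAG at 100 bases and GCGTG at 59 bases before its start, both on the opposite strand. In the PGF window shown, as in that of NRP2, these letters did not occur, which says nothing about binding of the factors. A second PGF window, before another start site (chr14:74955648-74955847, minus strand), held GCGTG on the opposite strand 162 bases before that start. Among 35116 windows of the same length, 11.5% held CGGAAG, 14.4% ACGTG, 26.3% GCGTG and 3.23% TGAGTCA, so a match is common.

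Gels and monolayers were next compared within each genotype. In knockout cells VEGFB, PGF and NRP2 fell in gels and VEGFC and NRP1 did not pass, where 38% of all tested genes were called, 17.9% lower and 20.1% higher. VEGFB had 32.3 and 31.7 CPM in knockout gels, against 51.5 and 45.6 CPM in knockout monolayers (log2 -0.60 ± 0.076, adjusted p = 1.16e-07, edgeR). PGF averaged 6.08 ± 0.780 CPM in knockout gels and 9.93 ± 0.474 CPM in knockout monolayers (log2 -0.71 ± 0.159, adjusted p = 0.000698). NRP2 averaged 20.9 ± 1.00 CPM in knockout gels and 30.9 ± 0.848 CPM in knockout monolayers (log2 -0.57 ± 0.086, adjusted p = 2.64e-06). None of these 3 genes had overlapping groups, which with 2 libraries per group can also happen in genes that do not differ. FLT1, which passed the filter through the monolayers, is given as counts only: its ratio of knockout gels to knockout monolayers was 0.0238 (0.00284 to 0.0890), from 2 and 79 counts.

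In control cells VEGFB and NRP2 fell in gels, VEGFC rose and PGF and NRP1 did not pass, where 26.7% of tested genes were called, 10.7% lower and 16% higher. VEGFB averaged 40.4 ± 0.437 CPM in control gels and 49.2 ± 3.55 CPM in control monolayers (log2 -0.28 ± 0.072, adjusted p = 0.00379, edgeR), and the call was lost without the second control monolayer (adjusted p = 0.0783). NRP2 averaged 20.1 ± 0.497 CPM in control gels and 27.4 ± 1.86 CPM in control monolayers (log2 -0.44 ± 0.086, adjusted p = 0.000214). The FLT1 count ratio of control gels to control monolayers was 0.137 (0.0804 to 0.222), from 19 and 145 counts. VEGFC averaged 91.0 ± 5.84 CPM in control gels and 81.6 ± 4.36 CPM in control monolayers (log2 0.16 ± 0.059, adjusted p = 0.0371), a call lost in 10 of 15 alternatives. PGF, called in knockout cells, had 11.1 ± 1.89 CPM in control gels and 12.3 ± 2.33 CPM in control monolayers (adjusted p = 0.558), and the difference between genotypes was not tested. NRP1 passed in neither genotype, with log2 differences of -0.06 in knockout cells (adjusted p = 0.281) and 0.06 in control cells (adjusted p = 0.378). NRP1 was 21.8 and 20.7 times NRP2 per kb in knockout gels, against 14.7 and 15.3 times in knockout monolayers, and 22.0 and 23.5 times in control gels, against 16.6 and 15.5 times in control monolayers. Other scalings turned the balance of all genes in these contrasts: with library size alone, 2089 genes were higher and 3539 lower in knockout cells (3122 and 2793 with TMM) and 1239 were higher and 2804 lower in control cells (2486 and 1672). With upper-quartile factors they were 2293 and 3360 in knockout cells, and 1699 and 2213 in control cells.

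VEGFA was then set beside 40 other hypoxia-response genes, many of them direct targets of the hypoxia-inducible factors. In monolayers, by the values that led to its choice, 28 of the 40 were below 0 and 12 above 0, and all 40 had a lower knockout effect than VEGFA. Their log2 fold changes ran from -0.96 to 0.35 with a median of -0.15, and the nearest to VEGFA was SLC2A1, the glucose transporter of the hypoxia response. In gels 34 of the 40 fell in knockout cells, 2 rose and 4 did not pass, with a median of -0.56. All tested genes had a median of -0.0011, with 12.4% lower and 11.5% higher. BNIP3, a mitophagy receptor, had 167 ± 5.27 CPM in knockout gels and 461 ± 9.89 CPM in control gels (SD, n = 2 each). CA9, a surface carbonic anhydrase, had 3.61 ± 0.0748 CPM in knockout gels and 43.1 ± 3.55 CPM in control gels (log2 -3.58, adjusted p = 3.8e-17, edgeR). PGK1, an enzyme of glycolysis, had 797 ± 28.5 CPM in knockout gels and 1488 ± 71.6 CPM in control gels. BNIP3L, a relative of BNIP3, had a log2 fold change of -1.04. The 2 that rose, named after their values were seen, were ADM (0.40), which encodes the vasodilator adrenomedullin, and CITED2 (0.23), a brake on hypoxia-inducible factors. In gels 37 of the 40 were below VEGFA and 3 above. Between cultures the order was another: 8 of the 40 lay below VEGFA and 32 above in knockout cells, and 6 below and 34 above in control cells. CITED2 was higher in gels than in monolayers, by 1.39 in knockout and 0.96 in control cells. CA9 had a log2 fold change of -2.43 for knockout gels over knockout monolayers, and BNIP3 one of 0.51 for control gels over control monolayers. These values rest on monolayers used in the choice, so they are a description and no test result is given. CITED2, CA9 and BNIP3 were named by their p in these same comparisons, which therefore lends them no support. Over the 8 libraries VEGFA had a positive correlation with 22 of the 40 genes and a negative one with 18, with a median r of 0.034; the libraries share groups, so this describes them only.

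**Figure D4:**
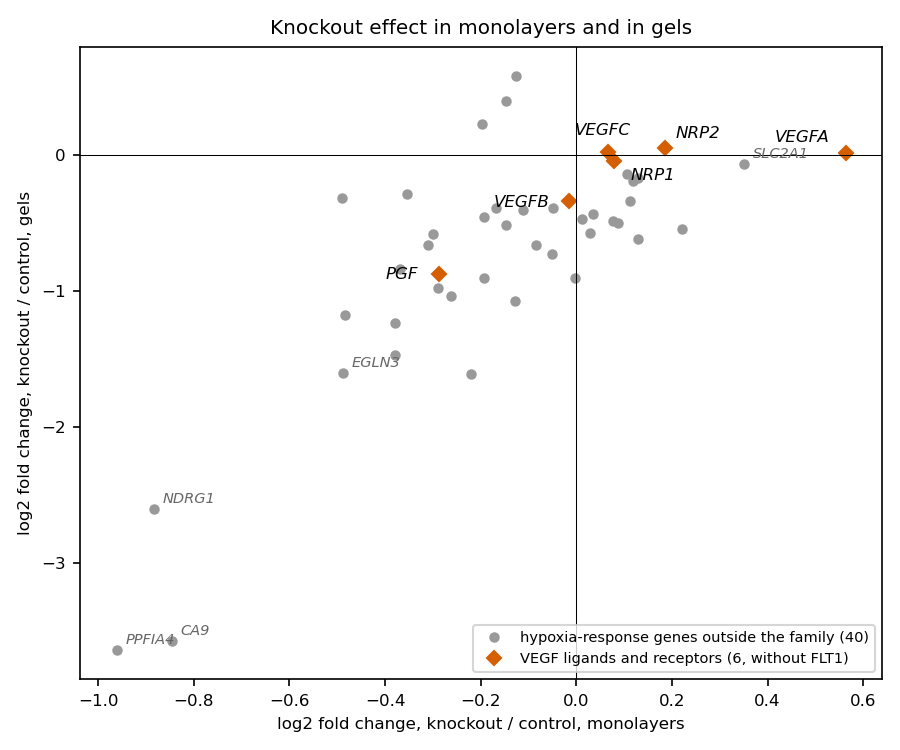
Log2 fold change of knockout over control in gels (vertical axis) against that in monolayers (horizontal axis), for 40 hypoxia-response genes (grey) and the 6 VEGF ligands and neuropilins without FLT1 (orange). VEGFA lies at the right edge, at 0.56 and 0.02, with all 40 genes to its left and 37 of them below it.

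Genes listed as regulators of VEGFA transcription and mRNA stability were compared next. Of 26 tested, 5 rose in knockout gels, 3 fell and 18 did not pass, beside 11.5% higher and 12.4% lower over all tested genes, with a median log2 fold change of 0.06. Without the first control gel library 4 of the 26 were called. HIF1A, the oxygen-regulated subunit of hypoxia-inducible factor, rose to 449 ± 10.9 CPM in knockout gels, against 386 ± 8.86 CPM in control gels (log2 0.22, adjusted p = 0.00147, edgeR). JUN, a subunit of AP-1, fell to 199 ± 0.0141 CPM in knockout gels, against 298 ± 2.18 CPM in control gels (log2 -0.58). ZFP36L1, which promotes decay of AU-rich mRNAs such as that of VEGFA, fell (log2 -0.26), and DRG1, a GTPase, rose (0.31). Between cultures, 17 rose and 2 fell in knockout gels over knockout monolayers, and 14 rose and 2 fell in control gels over control monolayers. Of all tested genes, 20.1% were higher and 17.9% lower in knockout cells, and 16% higher and 10.7% lower in control cells. That balance of all genes turned with other scalings, as given above. FOS, the immediate-early partner of JUN, reached 652 ± 4.39 CPM in knockout gels, against 9.59 ± 0.530 CPM in knockout monolayers, and 697 ± 13.9 CPM in control gels, against 7.77 ± 0.11 CPM in control monolayers. ZFP36, another decay factor for AU-rich mRNAs, rose in gels by 1.90 on the log2 scale in knockout cells and 1.96 in control cells. EGR1, an immediate-early factor, rose by 1.41 in knockout cells and 1.74 in control cells.

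**Figure D5:**
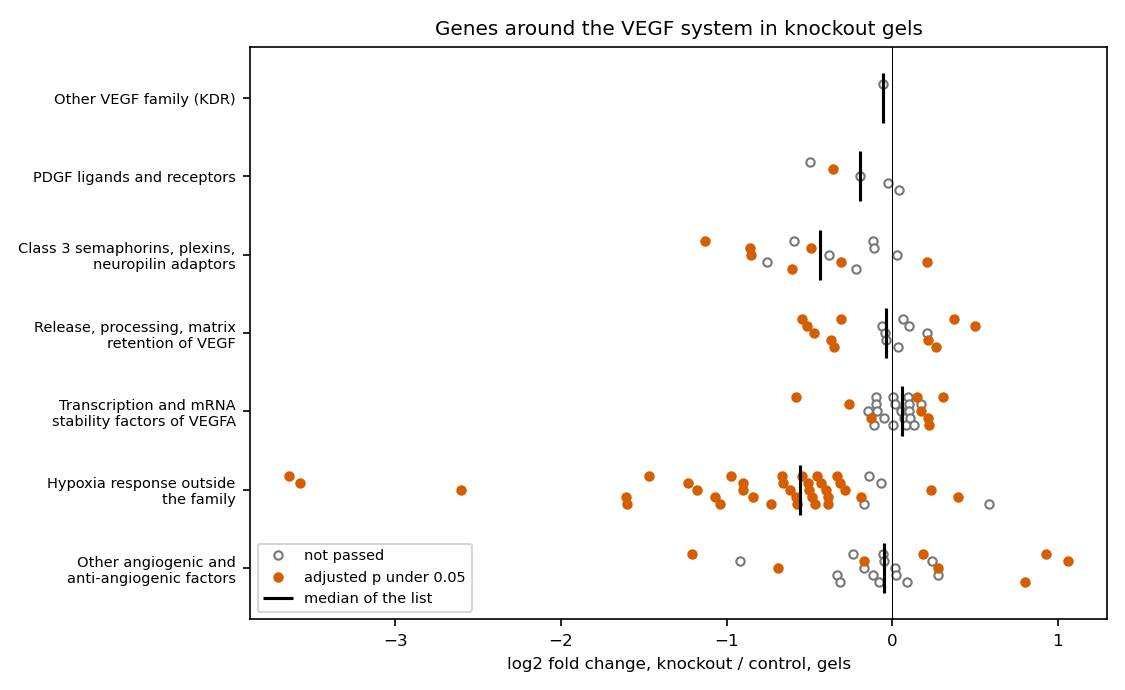
Log2 fold change of knockout over control in gels for the tested genes of each list around the VEGF system, with filled points for an adjusted p under 0.05 and a vertical bar at each list's median. The hypoxia-response list has its median at -0.56 and the semaphorin and plexin list at -0.44, while the regulators of VEGFA lie around 0.06.

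Neuropilins also answer to class 3 semaphorins, for which plexins are the signalling partners. Of 14 such genes tested (17 listed), 6 fell in knockout gels, 1 rose and 7 did not pass, with a median log2 fold change of -0.44; over all tested genes 12.4% fell and 11.5% rose. L1CAM, an adhesion molecule that associates with NRP1, had 66.4 ± 3.83 CPM in knockout gels and 145 ± 2.95 CPM in control gels (log2 -1.13, adjusted p = 2.83e-17, edgeR). PLXNA2, a plexin of class A, had 41.6 ± 2.92 CPM in knockout gels and 63.2 ± 1.24 CPM in control gels (log2 -0.60). PLXND1, an endothelial guidance receptor, had 44.8 ± 1.16 CPM in knockout gels and 63.1 ± 0.724 CPM in control gels (log2 -0.49). SEMA3B, a secreted semaphorin, had 57.0 ± 9.01 CPM in knockout gels and 103 ± 0.471 CPM in control gels (log2 -0.86). The 1 that rose was SEMA3C (0.21, adjusted p = 0.0229), named after its value was seen. Between cultures, 5 rose and 4 fell in knockout cells, and 3 rose and 2 fell in control cells. Of all tested genes, 20.1% were higher and 17.9% lower in knockout cells, and 16% higher and 10.7% lower in control cells. PLXND1 fell in gels over monolayers in both genotypes (log2 -0.65 in knockout cells, adjusted p = 5.86e-10, edgeR, and -0.26 in control cells). SEMA3B rose in both (0.44 in knockout and 0.67 in control cells), as did PLXNA2 (0.60 in knockout and 0.56 in control cells).

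Ligands of the VEGF family are held in the matrix by heparan sulphate and freed by proteases. Of 17 such genes tested (25 listed), 4 rose in knockout gels, 6 fell and 7 did not pass, with a median of -0.04, beside 11.5% higher and 12.4% lower over all tested genes. PLAU, the urokinase, fell to 301 ± 5.38 CPM in knockout gels, against 439 ± 3.26 CPM in control gels (log2 -0.54, adjusted p = 8.6e-12, edgeR). MMP14, a membrane-bound matrix metalloproteinase, fell to 838 ± 25.3 CPM in knockout gels, against 1067 ± 8.72 CPM in control gels (log2 -0.35), and SDC3, a heparan sulphate proteoglycan, had a log2 fold change of -0.52. ADAMTS1, a protease that can bind VEGFA, rose to 370 ± 13.8 CPM in knockout gels, against 261 ± 13.7 CPM in control gels (log2 0.50, adjusted p = 4.41e-10). ADAMTS1 also rose in gels over monolayers, by 1.63 in knockout and 1.25 in control cells, as did CCN2, a matrix protein that binds VEGFA, by 1.21 and 0.72. Of the related PDGF ligands and receptors, 5 of 7 were tested and 1 fell in knockout gels: PDGFA, at 9.16 ± 0.922 CPM in knockout gels and 11.7 ± 0.454 CPM in control gels (log2 -0.36, adjusted p = 0.0255), where 12.4% of all tested genes were lower. This call was lost without the second control gel library and with DESeq2, and without any 1 of the 4 monolayer libraries 2 genes of the list were called. PDGFRB (-0.50, adjusted p = 0.0793), PDGFD (-0.19) and PDGFC (0.04) did not pass in knockout gels. Between cultures PDGFA and PDGFRB fell in both genotypes, with log2 fold changes of -0.89 and -1.15 in knockout cells and -0.57 and -0.59 in control cells.

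The genes most like each member over the 8 libraries were taken by Pearson r on log2 CPM among 10877 genes with a mean of at least 5 CPM (10878 for FLT1). VEGFA was most like IFFO2 (r = 0.996), ANGPTL2 (0.987), PMEPA1 (0.987), SEMA4C (0.983) and TAPBP (0.979). PMEPA1, a target and inhibitor of TGF-beta signalling, averaged 108 CPM in knockout monolayers, 37.7 in control monolayers, 28.4 in knockout gels and 23.0 in control gels. VEGFB was most like IRF2BPL and COL4A2 (both 0.991), and PGF was most like LOXL2 and VWA1 (both 0.985). LOXL2, a collagen cross-linking enzyme, averaged 370.2 CPM in knockout monolayers, 427 in control monolayers, 281 in knockout gels and 396 in control gels. VEGFC was most like PLPBP (0.979) and ZDHHC12 (0.973), NRP1 ZHX2 (0.945) and PRRC1 (0.916), and NRP2 BORCS6 (0.988) and ADAMTS12 (0.984). FLT1 was most like BSDC1 (0.994) and PDGFA (0.991). It had only 0 to 10 counts per gel library, so its values there lie near the floor, which limits every r given for FLT1. Among the 7 genes themselves, r was 0.970 for VEGFB with FLT1, 0.841 for VEGFB with PGF, 0.827 for VEGFA with NRP2 and -0.806 for VEGFC with FLT1. These values describe 8 libraries that fall into 4 groups of 2.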

How the data were processed

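The authors deposited raw read counts by gene symbol for each library. The submitters' processing notes name FastQC 0.11.9, STAR 2.7.9a, the genome build hg38, featureCounts and R 4.1.1. The strand setting, the annotation and the version of featureCounts are not stated in the sources at hand. The kit selected poly(A) RNA and kept strand, per the labels' protocols.

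Counts were filtered with filterByExpr (minimum count 10), which 15568 genes passed, scaled by TMM factors and tested in edgeR 4.0.16 (R 4.3.3). The model held the group means of all 8 libraries, with 4 residual degrees of freedom, and used the robust quasi-likelihood F-test, two-sided. Adjusted p values (Benjamini-Hochberg, over the whole table of tested genes) had a threshold of 0.05. The tested comparisons were knockout against control in gels and gels against monolayers in each genotype. CPM values use TMM factors, ± beside a mean is the SD and ± beside a log2 fold change is the SE of the fit. Few counts were compared as ratios scaled by effective library size, with exact Clopper-Pearson 95% intervals, which cover counting error only. Lengths, positions and overlaps come from GENCODE 29 on GRCh38.

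The 7 genes and the gene lists were chosen with earlier results of these data known. By rule, the text names from each list the 4 genes with the smallest p in the knockout comparison in gels and the 2 with the smallest p in each culture comparison, and for each member the genes of highest r (5 for VEGFA, 2 for the others). Alternatives were other scalings, no filter, DESeq2 1.42.0, a replicate block, the 4 libraries of a comparison alone, and each library left out. The code was tested on simulated data. Replicate numbers are not said to pair libraries.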

Additional observations from a re-analysis of the deposited data

Results flagged for a closer look

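NRP1 was the only one of the 7 genes whose 2 genotypes changed places between cultures with no overlap in either, which 7.61% of the 15568 tested genes also did. The gap in monolayers was narrow. Both knockout monolayers (394 and 425 CPM) lay above both control monolayers (382 and 393 CPM), and both knockout gels (389 and 394 CPM) lay below both control gels (397 and 410.0 CPM). The gel effect of the knockout minus its monolayer effect was -0.12 ± 0.065 on the log2 scale, and this difference was not tested.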

How the results depend on the processing

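Lower PGF and VEGFB in knockout gels held their call in 15 alternatives each, with log2 fold changes of -1.03 to -0.68 and -0.35 to -0.32. With each library left out in turn, the VEGFA log2 fold change in knockout gels ran from -0.0084 to 0.0599. The number of genes called in that comparison, FLT1 included, ran from 2 to 3. Tested estimates near 0 changed sign in 5 further cases, none of them past the threshold. These were NRP1 in control gels over monolayers with library size alone (-0.0266), PGF in control gels over monolayers without the second control monolayer (0.07) or the second control gel (0.0417), NRP2 in knockout gels without the second knockout gel (-0.0032) and VEGFC in knockout gels without the second control gel (-0.0399). With each library left out these ran from -0.3396 to 0.07 for PGF, -0.0032 to 0.1225 for NRP2 and -0.0399 to 0.0921 for VEGFC. Over all alternatives the untested monolayer effects of VEGFB (-0.12 to 0.07) and VEGFC (-0.0032 to 0.12), and the gel-minus-monolayer effect of VEGFC (-0.11 to 0.04), also spanned 0. NRP1 in knockout gels over monolayers passed the test with upper-quartile factors (-0.12, adjusted p = 0.0443) and library size alone (-0.13, adjusted p = 0.0179), by edgeR. The cause of these shifts was not tested. With the replicate block, 3 of the genes were called in knockout gels, and VEGFA there stood at 0.02. The block changed no call in that comparison. The replicate differences of 2 groups had correlations of -0.063 to 0.082, so no broad difference was shared by replicate number. A shared difference in a few genes, or a weak one, would not show in this, so pairing stays unsettled. Over all genes, DESeq2 called 2479 in knockout gels (3721 with edgeR) and 2431 between cultures in control cells (4158). With a library left out, edgeR called 2106 to 3914 and 2144 to 4501 in these comparisons. Depth limits FLT1, at 0 to 10 counts per gel library.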

Other observations

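Angiogenic and anti-angiogenic factors outside the VEGF family were measured in the same libraries. Of 22 tested (29 listed), 5 rose in knockout gels, 3 fell and 14 did not pass, beside 11.5% higher and 12.4% lower over all tested genes, with a median log2 fold change of -0.05. THBS1, which encodes the angiogenesis inhibitor thrombospondin, rose to 862 ± 23.3 CPM in knockout gels, against 413 ± 9.36 CPM in control gels (SD, n = 2 each; log2 1.06, adjusted p = 4.39e-19, edgeR). EFNB2, an ephrin ligand of vessel growth, rose to 178 ± 4.91 CPM in knockout gels, against 147 ± 2.22 CPM in control gels (log2 0.28). APLN, which encodes the vessel ligand apelin, fell to 2.40 ± 0.444 CPM in knockout gels, against 5.53 ± 0.529 CPM in control gels (log2 -1.21, adjusted p = 3.79e-05). TNFSF15, an inhibitor of endothelial growth, had 7.95 ± 0.706 CPM in knockout gels and 12.8 ± 0.629 CPM in control gels (log2 -0.69). Between cultures TNFSF15 fell, with log2 fold changes of -2.61 for knockout gels over knockout monolayers and -1.81 for control gels over control monolayers. CCN1, a matrix protein that acts on integrins, rose by 1.25 in knockout gels over knockout monolayers and by 0.52 in control gels over control monolayers.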
